A study of Mus musculus with 16 samples.

Results

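Branched-chain amino acid (BCAA) catabolism was followed through 10 genes, *Bcat2*, *Bckdha*, *Bckdhb*, *Dbt*, *Dld*, *Ivd*, *Mccc1*, *Acad8*, *Hibadh* and *Pcca*. They were listed by name for their place in the pathway, with earlier results of these data known. They are 10 of the 19353 gene symbols for which RNA was measured in mouse gonadal white adipose tissue (gWAT). The samples were gWAT from 16 male mice on the C57Bl6/J background, 1 RNA-seq library per mouse, with 4 mice in each of 4 groups fed their diet for 20 weeks and fasted for 4 h before collection. Control mice carried the floxed allele alone (*Mboat7* flox/flox), and *Mboat7* ASKO mice carried the same floxed allele with a Cre recombinase under the adiponectin promoter. *Mboat7* encodes an acyltransferase that adds arachidonic acid to lysophosphatidylinositol. Each genotype was fed either chow or a high fat diet (HFD; Research Diets, D12492). The labels give the chow as Teklad TD:130104, where the paper's methods name another Teklad product. The ages of the mice are not given in the sources used here. The adiponectin promoter is active in adipocytes, so macrophages, endothelial cells and other cells of the depot keep the gene. The study asked how adipocyte *Mboat7* bears on metabolic disturbance under HFD, and the comparisons below ask how the BCAA genes differed with diet, with genotype, and with genotype under each diet.

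Leucine, isoleucine and valine are first transaminated to branched-chain keto acids, which the branched-chain keto acid dehydrogenase complex (BCKDH) in mitochondria decarboxylates irreversibly to acyl-CoA esters. Separate branches then carry leucine to acetyl-CoA and acetoacetate, and valine and isoleucine to propionyl-CoA, which enters the citrate cycle as succinyl-CoA. White adipocytes are known to burn BCAA and to draw on them for lipid synthesis, and lower expression of this pathway in adipose tissue is a known feature of obesity.

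All 10 genes passed the limit for testing, at least 1 FPKM in at least 4 mice. FPKM is the number of fragments on a gene, corrected for its exon length and for the fragments mapped in that library. Every gene reached 1 FPKM in all 8 chow mice, and on HFD *Bckdhb*, *Dbt* and *Ivd* reached it in 7 of 8 mice and the other 7 genes in 8 of 8.

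Promoter sequence is shown for the 3 genes with a diet difference past the test that have a RefSeq window, *Mccc1*, *Ivd* and *Bckdhb*, and for *Acad8*, the gene with the smallest diet difference. Each line gives the bases just upstream of the annotated start, 5′ to 3′ on the strand of the gene, taken from RefSeq on GRCm38.p6. The windows hold up to 250 bases and end before the gene's start in GENCODE M21 and before the RefSeq start nearest to it. Other RefSeq starts and transcripts of other genes were not checked. Capitals mark CCAAT and GGGCGG (a GC box) on either strand, so the reverse complements ATTGG and CCGCCC are in capitals too.
*Mccc1*, chr3:36000679-36000928, minus strand: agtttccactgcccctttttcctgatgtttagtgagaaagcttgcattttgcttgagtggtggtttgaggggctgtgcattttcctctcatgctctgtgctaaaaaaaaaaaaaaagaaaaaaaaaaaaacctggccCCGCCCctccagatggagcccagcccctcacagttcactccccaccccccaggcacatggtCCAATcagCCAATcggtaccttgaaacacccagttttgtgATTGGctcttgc
*Ivd*, chr2:118861744-118861953, plus strand: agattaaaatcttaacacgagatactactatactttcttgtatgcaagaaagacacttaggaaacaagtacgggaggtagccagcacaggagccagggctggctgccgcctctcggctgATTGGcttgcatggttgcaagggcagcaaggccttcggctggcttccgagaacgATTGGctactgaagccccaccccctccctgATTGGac
*Bckdhb*, chr9:83924887-83925136, plus strand: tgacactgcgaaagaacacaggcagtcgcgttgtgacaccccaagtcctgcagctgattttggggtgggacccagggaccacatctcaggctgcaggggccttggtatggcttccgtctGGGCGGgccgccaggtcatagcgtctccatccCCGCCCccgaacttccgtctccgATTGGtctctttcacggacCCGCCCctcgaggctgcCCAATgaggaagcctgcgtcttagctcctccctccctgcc
*Acad8*, chr9:26999567-26999799, minus strand: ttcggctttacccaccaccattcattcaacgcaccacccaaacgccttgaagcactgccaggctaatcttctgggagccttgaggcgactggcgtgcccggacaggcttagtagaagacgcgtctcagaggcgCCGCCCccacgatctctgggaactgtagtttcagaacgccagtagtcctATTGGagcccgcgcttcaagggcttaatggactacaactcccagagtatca

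The stretch shown for *Mccc1* held 3 CCAAT matches and 1 GC box, that for *Ivd* 3 CCAAT matches and no GC box, that for *Bckdhb* 2 CCAAT matches and 3 GC boxes, and that for *Acad8* 1 of each. Over the full 250 bases, 9 of the 10 genes had a RefSeq window (all but *Dbt*), and CCAAT was present in 7 of these 9, against 33.8% of 32851 windows of the same length and 35.4% of the 21263 windows of coding genes. GGGCGG was present in 5 of 9, against 32.7% of all windows and 42.6% of coding ones. CACCC, the core of a motif for Krüppel-like factors, was present in 6 of 9, against 52.0% of all windows. AGGTCA, a nuclear receptor half-site, was in 1 of 9 windows, against 14.0%. CACGTG and GCGCATGCG were in 0 of 9, against 6.0% and 1.4%. All motifs were searched on both strands, none of the motifs contains another, and a match describes letters in the window and not a bound site. The median GC content of the 9 windows was 51.2%, against 52.4% of all windows. The full windows, unlike the stretches shown, were not cut at the GENCODE start, and some run past it into the annotated gene. Only 30 of the 250 bases of *Bckdha* lay before that start, 161 for *Hibadh*, 210 for *Ivd*, 233 for *Acad8* and 246 for *Pcca*.

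HFD mice had less RNA of the BCAA pathway than chow mice. The diet difference, averaged over both genotypes on the log2(FPKM + 1) scale, was below 0 for 10 of 10 genes, against 49.5% of the 13147 genes tested, with a median log2 fold change of -1.16 against 0.01 over all genes tested. *Mccc1*, *Dbt*, *Bckdhb* and *Ivd* fell past the limits, which were an adjusted p-value below 0.05 in limma (Benjamini-Hochberg adjustment over all genes tested) and a log2 fold change beyond 0.5 in either direction. These are 4 of 10 genes, against 3.04% of all genes lower on HFD and 7.53% called in either direction. By a two-sided exact permutation test within genotypes, 9 of 10 genes had an unadjusted p under 0.05, against 18.6% of genes tested, with *Acad8* the exception (exact p = 0.297). Every HFD mouse lay below every chow mouse for 2 of 10 genes, *Dbt* and *Mccc1*, against 0.761% of genes tested. The list was made with earlier results of these data known, so these shares describe it and are no independent test. Fold changes of low genes are understated on the log2(FPKM + 1) scale, and the mice of a group are separate animals.

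**Figure D1:**
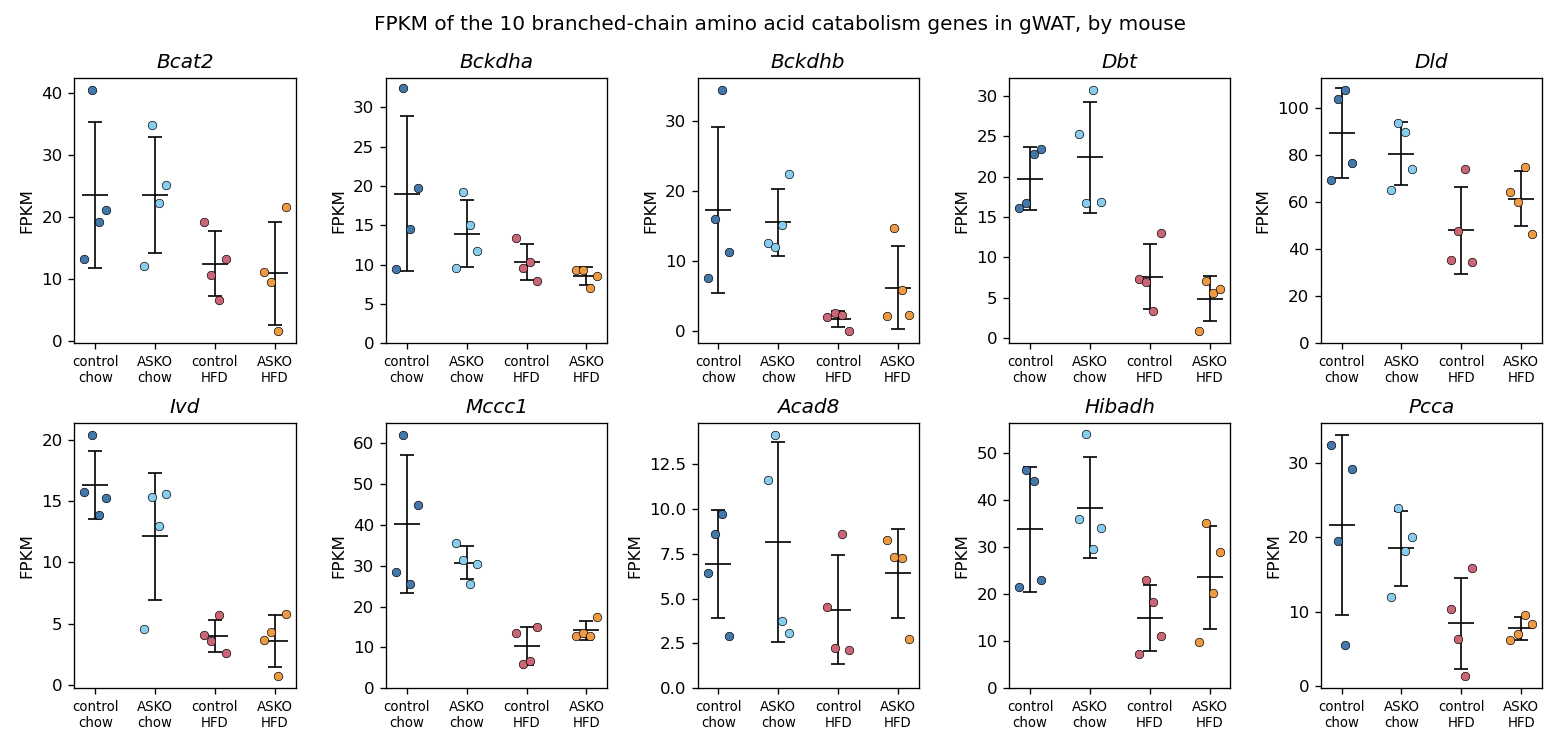
FPKM of each of the 10 BCAA genes (vertical axes, linear, 1 panel per gene) in control and *Mboat7* ASKO mice on chow and HFD. Points are single mice, horizontal lines are means and error bars are SD over 4 mice. *Mccc1* lay between 25.5 and 61.9 FPKM in the 8 chow mice and between 5.95 and 17.5 in the 8 HFD mice, while the groups overlap widely for *Acad8*.

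*Bcat2* encodes the mitochondrial branched-chain aminotransferase, which catalyses the first and reversible step. Its level was 23.5 ± 11.7 FPKM (SD, n = 4) in control chow mice, 23.6 ± 9.34 in *Mboat7* ASKO chow mice, 12.5 ± 5.25 in control HFD mice and 11 ± 8.30 in *Mboat7* ASKO HFD mice. The log2 fold change with HFD was -1.08 (SE 0.40), which did not pass in limma (adjusted p = 0.128; exact permutation p = 0.0098). Chow mice ran from 12.1 to 40.4 FPKM and HFD mice from 1.58 to 21.7, so the diets overlapped.

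BCKDH is built from E1 (*Bckdha*, the alpha subunit, and *Bckdhb*, the beta subunit), E2 (*Dbt*, the transacylase core) and E3 (*Dld*, a dihydrolipoyl dehydrogenase that the pyruvate and 2-oxoglutarate dehydrogenase complexes and the glycine cleavage system also use). Its 4 subunits differed in the size of their diet difference, from -2.09 for *Bckdhb* and -1.75 for *Dbt* to -0.66 for both *Bckdha* and *Dld*. Differences between genes in the size of the change were not tested.

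*Bckdhb* (chromosome 9, 83925145 to 84124240 in mm10, plus strand) stood at 7.58, 16, 34.4 and 11.4 FPKM in the 4 control chow mice and at 12.6, 12.1, 15.2 and 22.5 in the 4 *Mboat7* ASKO chow mice. On HFD it stood at 2.04, 2.56, 2.27 and 0 FPKM in control mice and at 2.18, 14.7, 5.86 and 2.30 in *Mboat7* ASKO mice. All 4 control HFD mice and 3 of the 4 *Mboat7* ASKO HFD mice lay below the lowest chow mouse, and 1 *Mboat7* ASKO HFD mouse lay among the chow mice. The log2 fold change with HFD over both genotypes was -2.09 (SE 0.41, limma adjusted p = 0.00362; exact permutation p = 0.00122). These levels rest on few fragments. Fragments were estimated from the steps between low FPKM values and the length of a gene's longest annotated transcript. The HFD values of *Bckdhb* correspond to a median of about 1.2 fragments per mouse (0 to 8.7) and the chow values to about 6.5 (3.2 to 17.5).

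*Dbt* (chromosome 3, 116513070 to 116549981, plus strand) stood at 16.1, 16.7, 22.8 and 23.4 FPKM in control chow mice and at 25.3, 16.7, 30.7 and 16.9 in *Mboat7* ASKO chow mice. On HFD it stood at 7.30, 6.94, 3.33 and 13 FPKM in control mice and 0.846, 7.03, 5.65 and 6.05 in *Mboat7* ASKO mice. The highest HFD mouse was below the lowest chow mouse, so the diets did not overlap in either genotype. *Dbt* fell by 1.75 on the log2 scale with HFD (SE 0.34, limma adjusted p = 0.00294), and its exact permutation p of 0.000408 is the smallest that 8 against 8 mice permuted within genotypes can give. Its HFD values correspond to a median of about 7.0 fragments per mouse and its chow values to about 19.1.

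*Bckdha* averaged 19.0 ± 9.85 and 13.9 ± 4.25 FPKM in control and *Mboat7* ASKO mice on chow, and 10.3 ± 2.27 and 8.56 ± 1.11 on HFD (SD, n = 4 each). Its log2 fold change of -0.66 (SE 0.26) did not pass (limma adjusted p = 0.16). Most of the annotated exon length of *Bckdha* overlaps *B3gnt8* on the opposite strand, and whether strand entered the authors' quantification is not stated. *B3gnt8* itself was above 0 in 2 mice, at 13.4 FPKM in 1 *Mboat7* ASKO chow mouse and 2.30 in 1 control HFD mouse. *Dld* was the most abundant of the 10 genes per length, with means of 89.6 ± 19.1 and 80.7 ± 13.5 FPKM in control and *Mboat7* ASKO mice on chow. On HFD the means were 48.1 ± 18.5 and 61.7 ± 11.9 FPKM. Its log2 fold change of -0.66 (SE 0.20) lay just outside the limit (limma adjusted p = 0.0575; exact permutation p = 0.00449).

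Both leucine branch genes fell with HFD. *Ivd* encodes isovaleryl-CoA dehydrogenase, the first dehydrogenation after BCKDH, and lies on chromosome 2 (118861954 to 118882909, plus strand). It stood at 15.8, 20.4, 13.9 and 15.3 FPKM in control chow mice and at 4.55, 15.4, 13 and 15.6 in *Mboat7* ASKO chow mice. On HFD it stood at 4.06, 3.58, 5.72 and 2.56 FPKM in control mice and at 3.62, 4.31, 0.673 and 5.77 in *Mboat7* ASKO mice. A single *Mboat7* ASKO chow mouse, at 4.55 FPKM, lay within the HFD range, and the other 7 chow mice lay above every HFD mouse. The log2 fold change was -1.70 (SE 0.34, limma adjusted p = 0.00375; exact permutation p = 0.000816), and the HFD values correspond to a median of about 5.3 fragments per mouse.

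*Mccc1* encodes the biotin-carrying alpha subunit of methylcrotonyl-CoA carboxylase, a later step of leucine breakdown, and lies on chromosome 3 (35959312 to 36000678, minus strand). It stood at 28.4, 61.9, 25.5 and 44.8 FPKM in control chow mice and at 35.5, 31.4, 25.5 and 30.5 in *Mboat7* ASKO chow mice. On HFD it stood at 13.6, 5.95, 6.80 and 15.1 FPKM in control mice and at 12.8, 13.6, 12.7 and 17.5 in *Mboat7* ASKO mice. No HFD mouse reached the lowest chow mouse. *Mccc1* fell by 1.47 on the log2 scale (SE 0.25, limma adjusted p = 0.00119; exact permutation p = 0.000408), or 2.76-fold on the FPKM + 1 scale. By the estimate it had more fragments behind it than the other genes that passed, a median of about 31.2 per mouse on HFD and 61.9 on chow. That estimate takes its longest transcript, 6751 bases against 3301 for *Dbt* and 1477 for *Bckdhb*, and a shorter transcript would give fewer. The locus the deposited table gives for *Mccc1* runs past the annotated gene, and 3 noncoding genes or pseudogenes overlap its exons.

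None of the 3 genes of the valine branch and propionyl-CoA passed. *Acad8* (isobutyryl-CoA dehydrogenase) averaged 7.52 ± 4.18 FPKM in the 8 chow mice and 5.38 ± 2.78 in the 8 HFD mice, with a log2 fold change of -0.39 (SE 0.39, limma adjusted p = 0.667). *Hibadh* (3-hydroxyisobutyrate dehydrogenase) averaged 36.1 ± 11.4 and 19.3 ± 9.72 FPKM, a log2 fold change of -0.97 (SE 0.31, limma adjusted p = 0.0674). *Pcca*, the biotin-carrying alpha subunit of propionyl-CoA carboxylase, averaged 20.1 ± 8.72 and 8.07 ± 4.17 FPKM, a log2 fold change of -1.25 (SE 0.41, limma adjusted p = 0.0803). The exact permutation p-values were 0.00694 for *Hibadh* and 0.00857 for *Pcca*. *Pcca* was uneven within groups, from 5.50 to 32.4 FPKM in control chow mice and from 1.26 to 15.8 in control HFD mice, where *Mboat7* ASKO HFD mice ran only from 6.12 to 9.52.

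The diet difference was then taken in each genotype on its own. In control mice 3 of 10 genes fell past the limits, against 1.1% of genes tested lower and 2.91% called in either direction, and the median log2 fold change of the 10 was -1.25. These were *Bckdhb* (-2.71, SE 0.58, limma adjusted p = 0.0154), *Mccc1* (-1.86, SE 0.36, limma adjusted p = 0.00703) and *Ivd* (-1.83, SE 0.48, limma adjusted p = 0.0471). Every HFD mouse lay below every chow mouse for 4 of 10 genes in control mice (*Bckdhb*, *Dbt*, *Ivd* and *Mccc1*), against 3.89% of genes tested. In *Mboat7* ASKO mice 1 of 10 genes, *Dbt*, fell past the limits (-2.14, SE 0.47, limma adjusted p = 0.017), against 1.3% of genes tested lower and 3.43% called in either direction, and the median of the 10 was -1.10. Every HFD mouse lay below every chow mouse for 4 of 10 genes in *Mboat7* ASKO mice (*Bckdha*, *Dbt*, *Mccc1* and *Pcca*), against 4.42% of genes tested. The exact permutation p of each such gene was 0.0286, the smallest that 4 against 4 mice allow. The calls in single genotypes were less firm than those over both. *Ivd* in control mice lost its call in 20 of 30 alternatives, *Bckdhb* lost it without control chow mouse 2 or without control HFD mouse 3, and *Dbt* lost it in *Mboat7* ASKO mice without *Mboat7* ASKO chow mouse 2 or *Mboat7* ASKO HFD mouse 0, counting mice from 0 as the labels do.

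**Figure D2:**
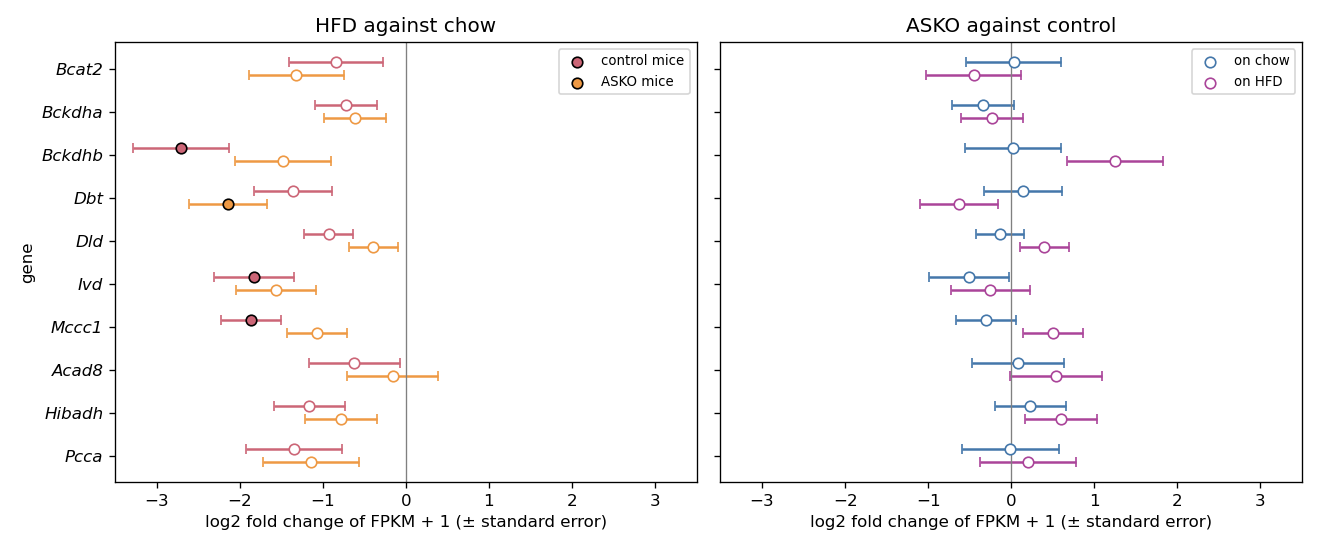
Log2 fold change of FPKM + 1 for each BCAA gene (rows), for HFD against chow in each genotype (left) and for *Mboat7* ASKO against control on each diet (right). Points are limma estimates, bars are their standard errors, and filled points passed both limits (adjusted p-value below 0.05, fold change beyond 0.5 in log2). On the left all 20 points lie below 0 and 4 are filled, and on the right the points lie on both sides of 0 and none is filled.

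Loss of *Mboat7* in adipocytes gave no call among the BCAA genes on either diet. On HFD, limma called 0 of 10 genes between *Mboat7* ASKO and control mice, against 0.00761% of genes tested (1 gene). Log2 fold changes ran from -0.63 for *Dbt* to 1.25 for *Bckdhb*, and the lowest adjusted p was 0.961. At an unadjusted p under 0.05 there was 1 of 10 genes, *Bckdhb* (limma p = 0.0478), whose exact permutation p was 0.171. Its higher mean in *Mboat7* ASKO HFD mice, 6.25 ± 5.86 FPKM against 1.72 ± 1.16 in control HFD mice (SD, n = 4 each), came from the mice at 14.7 and 5.86 FPKM, and the other 2 *Mboat7* ASKO mice, at 2.18 and 2.30 FPKM, lay within the range of the control mice. The groups were separate for 0 of 10 genes on HFD, against 3.38% of genes tested.

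On chow, limma called 0 of 10 genes between the genotypes, against 0.00761% of genes tested, with 0 of 10 at an unadjusted p under 0.05 and a lowest adjusted p of 0.983. Log2 fold changes ran from -0.51 for *Ivd* to 0.23 for *Hibadh*, and the groups were separate for 0 of 10 genes, against 2.19% of genes tested. No exact permutation p of the 10 genes was under 0.05 on either diet. The genotype-by-diet interaction, which tests whether the diet difference itself differed between genotypes, was called for 0 of 10 genes, against 0% of genes tested (limma). Its log2 estimates ran from -0.78 for *Dbt* (SE 0.67) to 1.23 for *Bckdhb* (SE 0.83), with 0 of 10 at an unadjusted p under 0.05. The standard errors of the genotype differences lay between 0.29 for *Dld* and 0.58 for *Bckdhb*, so differences of the size seen could not be told from 0 at this number of mice.

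*Mboat7* RNA, the target of the deletion, was low and did not separate the genotypes in these libraries. It stood at 2.42, 4.33, 0.902 and 4.99 FPKM in control chow mice and at 0, 1.39, 0 and 2.89 in *Mboat7* ASKO chow mice, a log2 fold change of -1.12 (SE 0.62, limma adjusted p = 0.983). On HFD it stood at 0, 0, 2.15 and 1.61 FPKM in control mice and at 1.14, 0, 2.60 and 0 in *Mboat7* ASKO mice. The genotypes overlapped on both diets.

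The rest of the pathway was a list of 20 further genes, all of them in the table and tested. Over both genotypes 7 of the 20 fell past the limits, against 3.04% of all genes tested, and 0 rose past them. The log2 fold change was below 0 for 15 of the 20, against 49.5% of all genes tested, with a median of -0.94. The 5 above 0, none past the limits, were *Mcee* (1.33), *Bcat1* (0.82), *Slc25a44* (0.38), *Slc3a2* (0.33) and *Auh* (0.01). *Slc7a5*, like *Slc25a44* and *Slc3a2* a carrier gene, stood at -0.1. This list too was made with earlier results of these data known. *Slc43a1*, a plasma membrane carrier of branched-chain and other large neutral amino acids, fell by 2.07 (SE 0.26, limma adjusted p = 5.74e-05), from 77.9 ± 22.4 FPKM in 8 chow mice to 18.5 ± 7.99 in 8 HFD mice. *Acadsb*, the isoleucine branch dehydrogenase, fell by 1.35 (limma adjusted p = 0.000607), from between 16.5 and 24.8 FPKM on chow to between 4.56 and 9.74 on HFD.

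In the valine branch *Aldh6a1*, methylmalonate semialdehyde dehydrogenase, fell by 1.26 (limma adjusted p = 0.00267) and *Hibch*, 3-hydroxyisobutyryl-CoA hydrolase, by 1.03 (limma adjusted p = 0.0214). *Echs1*, an enoyl-CoA hydratase shared with fatty acid oxidation, fell by 1.09 (limma adjusted p = 0.0268). *Klf15*, a transcription factor known to regulate BCAA genes, fell by 1.99 (limma adjusted p = 0.0133) from a low level, and was listed at 0 in 6 of 8 HFD mice. In control mice 4 of the 20 fell, against 1.1% of all genes tested, and 1 rose. In *Mboat7* ASKO mice 3 fell, against 1.3%. The gene that rose was *Mcee*, methylmalonyl-CoA epimerase (3.08, SE 0.64, limma adjusted p = 0.0121), which was listed at 0 in 3 of the 4 control chow mice. *Mcee* stood between 9.48 and 32.3 FPKM in *Mboat7* ASKO chow mice, and its log2 fold change over both genotypes was 1.33 (limma adjusted p = 0.0922).

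Subunits of the same carboxylase could be set side by side. *Pccb*, the beta subunit that pairs with *Pcca*, fell with HFD (-1.16, SE 0.21, limma adjusted p = 0.00197) from 104.0 ± 37.6 and 103.0 ± 26.3 FPKM in control and *Mboat7* ASKO mice on chow to 46.7 ± 10.7 and 42.8 ± 7.56 on HFD. *Mccc2*, which pairs with *Mccc1*, had a log2 fold change of -1.18 (SE 0.36) that did not pass (limma adjusted p = 0.0563), with means of 18.6 ± 2.42 and 12.3 ± 6.25 FPKM on chow and 9.52 ± 5.24 and 4.94 ± 4.76 on HFD. The BCKDH kinase *Bckdk*, which inactivates the complex, and the phosphatase *Ppm1k*, which activates it, did not pass. *Bckdk* lay between 0 and 8.86 FPKM over the 16 mice (log2 fold change -0.55, SE 0.49, limma adjusted p = 0.609), and *Ppm1k* between 0 and 5.05 (-0.96, SE 0.41, limma adjusted p = 0.193).

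Neighbouring mitochondrial pathways were described by the same counts. Of 13 genes of fatty acid oxidation 0 passed in limma, with a median log2 fold change of -0.17 and 1 with an exact permutation p under 0.05. Of 11 citrate cycle genes 1 fell (*Sdha*, a succinate dehydrogenase subunit, -0.64, limma adjusted p = 0.028), with a median of -0.48. Of 8 tested subunits of other complexes that use *Dld* or its reaction, 2 fell, the pyruvate dehydrogenase subunit *Pdha1* (-0.84, limma adjusted p = 0.0118) and the glycine cleavage gene *Amt* (-1.41, limma adjusted p = 0.0476), with a median of -0.45. An exact permutation p under 0.05 was also found for 1 of the 11 citrate cycle genes and 3 of the 8 subunits, against 18.6% of all genes tested. Differences between these lists and the 10 BCAA genes were not tested.

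**Figure D3:**
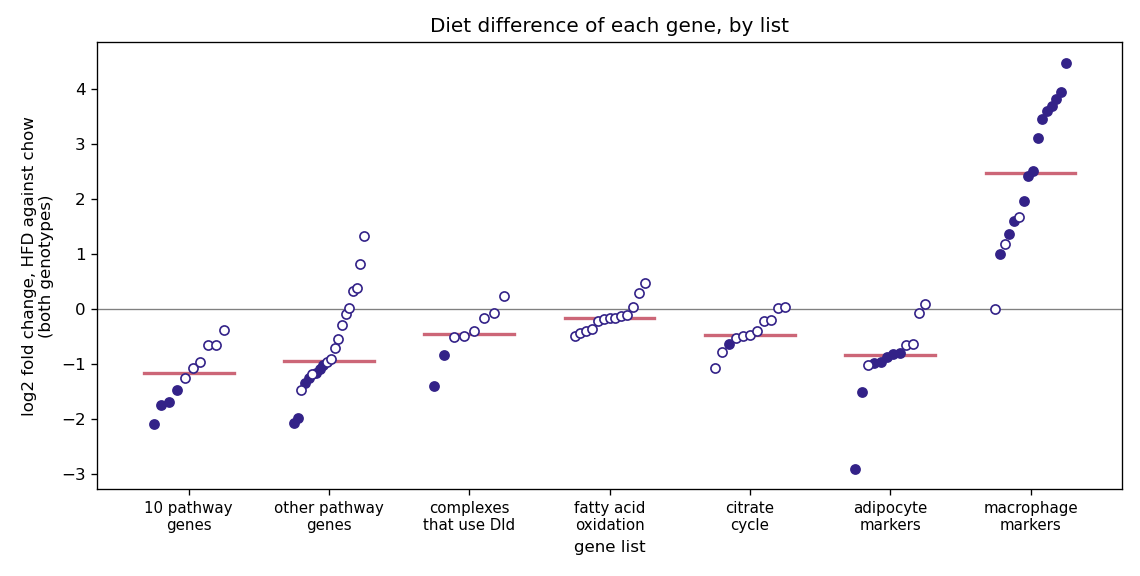
Log2 fold change of HFD against chow over both genotypes (vertical axis) for each tested gene of 7 lists (horizontal axis). Each point is 1 gene, ordered by its value within its list, red lines are list medians, and filled points passed the limits. The medians were -1.16 for the 10 BCAA genes, -0.94 for the other pathway genes, -0.85 for adipocyte markers and 2.46 for macrophage markers.

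Markers of the cells in the depot moved with diet beside the BCAA genes. In bulk tissue, fewer adipocytes and less RNA per adipocyte cannot be told apart. Adipocyte markers were abundant in all mice, with *Adipoq* (adiponectin) at 679 to 1870 FPKM on chow and 318 to 539 on HFD, and 7 of 12 fell past the limits with a median log2 fold change of -0.85. Their summed level ran from 8880 to 25300 FPKM in chow mice and from 4650 to 10700 in HFD mice. Of 16 macrophage markers 13 rose, with a median of 2.46, and their summed level ran from 245 to 383 FPKM on chow and from 1190 to 2130 on HFD. *Itgax*, a marker of the macrophages that gather in obese fat, was at 0 to 0.741 FPKM on chow and 8.51 to 47.4 on HFD.

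Of 7 fibroblast and progenitor markers 2 rose (*Lum* and *Col3a1*; list median 0.78), of 6 endothelial markers 0 passed (median 0.16), and of 5 mesothelial markers tested 1 fell (median -1.33). The brown adipocyte marker *Ucp1* was at 0 in all 8 chow mice and at most at 1.94 FPKM on HFD, and 2 of 6 genes of that list were tested, with 0 calls. Of 6 skeletal muscle markers 3 were in the table and 2 tested, with 0 calls. Of 6 epididymis markers 1 was in the table, *Adam7*, at most at 0.736 FPKM in any mouse.

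The mean log2(FPKM + 1) of the 10 BCAA genes ran from 4.19 to 4.90 in chow mice and from 3.09 to 3.72 in HFD mice, without overlap. Taken relative to the mean of the 12 adipocyte markers in the same mouse, the diets overlapped. That difference was -2.73 ± 0.12 in control chow mice and -3.20 ± 0.31 in control HFD mice, and -2.88 ± 0.11 and -2.94 ± 0.40 in *Mboat7* ASKO mice on chow and HFD (SD, n = 4 each). When every library was scaled to its adipocyte markers, the median log2 fold change of the 10 genes with HFD was -0.31 while the median over all genes tested moved from 0.01 to 0.62. On that scale 22.3% of 13275 genes were called, 2850 higher and 107 lower on HFD. Of the 10 genes 1, *Bckdhb*, stayed past the limits (-1.39, limma adjusted p = 0.0372), and *Mccc1* (-0.58), *Dbt* (-0.92) and *Ivd* (-0.91) did not. *Bckdha*, *Dld* and *Acad8* lay above 0 on it, at 0.20, 0.26 and 0.39. The 12 markers did not move alike with HFD, from -2.91 for *Retn* to 0.09 for *Cd36* over both genotypes before the scaling. After it, 2 of the 12 were called lower on HFD and 2 higher. The part of the cell makeup in the diet difference was not tested.

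**Figure D4:**
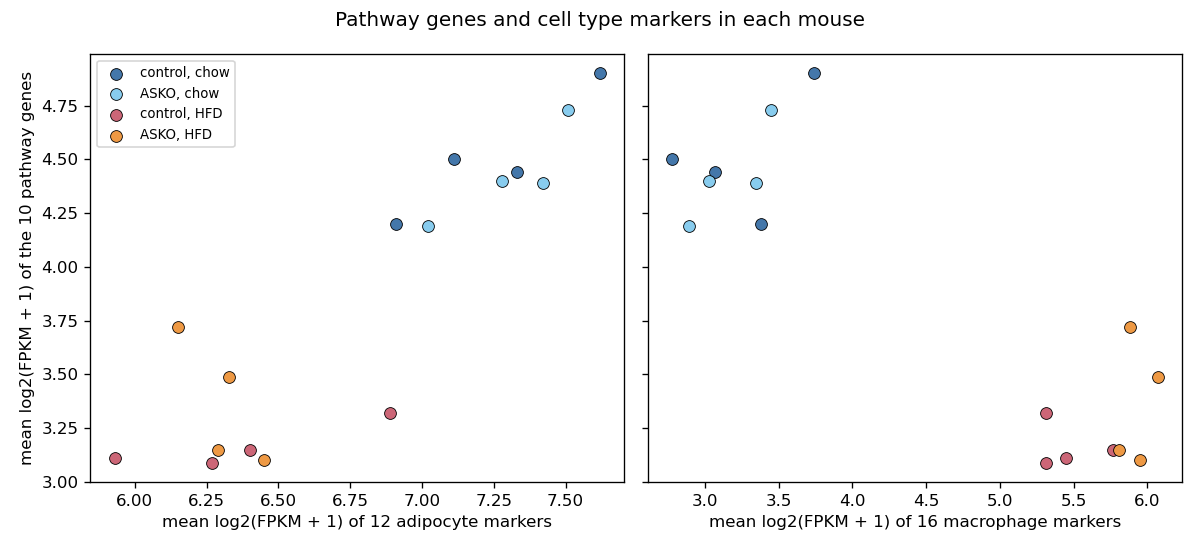
Mean log2(FPKM + 1) of the 10 BCAA genes in each mouse (vertical axis) against the mean of 12 adipocyte markers (left) and of 16 macrophage markers (right). Each point is 1 mouse, coloured by group. Chow mice lie at 4.19 and above on the vertical axis and HFD mice at 3.72 and below, and macrophage markers separate the diets without overlap.

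The 10 genes were also compared within groups. After each group's mean was removed, the 45 pairs of genes had Pearson correlations over the 16 mice from -0.67 to 0.74 with a median of 0.1, and 27 of 45 were above 0. These are descriptions, since all values of a mouse share 1 library and its depth. Several of the genes rest on a few fragments per mouse, which lowers such correlations, so neither joint nor separate movement is read from them. Correlations with the mean of the other 9 ran from -0.29 for *Pcca* to 0.68 for *Bckdha*. The genes outside the list whose deviations were most like the mean of the 10, among 6029 tested genes with a mean of at least 5 FPKM, were *Gm8121* (r = 0.853), *Zbtb8os* (r = 0.851), *Cyc1* (r = 0.844), *Odc1* (r = 0.827) and *Clta* (r = 0.826). None of these 5 passed with diet.

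No read counts are in the table, and the steps between low FPKM values gave an estimate of depth. A single fragment on a transcript of 1 kb was worth 2.48 to 4.31 FPKM over the 16 mice, equal to 232000 to 403000 fragments in a library on the scale of the deposited values. The fit of the steps was scored by a mean cosine, which is 1 for exact steps. It ran from 0.155 in *Mboat7* ASKO chow mouse 1 to 0.609 in *Mboat7* ASKO chow mouse 0, so the fragment numbers are rough. FPKM sums ran from 606370 to 982004, and the 10 highest genes took from 32.6% to 55.2% of a mouse's sum, over 50% in control HFD mouse 1 and *Mboat7* ASKO HFD mouse 3. Without both of these mice the same 4 genes passed with diet over both genotypes, against 5.6% of the 12618 genes tested then. Per-gene values of a few FPKM therefore rest on a few fragments, and differences of that size between single mice are not resolved.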

How the data were processed

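gWAT RNA of 16 mice (4 per group) was sequenced from mRNA libraries made with a directional kit. The authors trimmed the reads, used STAR and the GENCODE annotation to align them to mm10, and had Cufflinks compute FPKM. The deposited table holds these FPKM values with 1 column per mouse. Cuffdiff is also listed in the submitters' processing notes. The GENCODE release, the normalization setting of Cufflinks and the use of strand are not given in the sources used here. The labels and the paper name different sequencers and different Teklad chow products. All columns of per-sample values were mapped to mice by title (0 left out).

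Groups were taken from the sample labels. The 10 genes, the comparison lists and the marker lists were chosen with earlier results of these data known. The named genes are all 10, the other pathway genes past the limits with the BCKDH kinase and phosphatase, and the 5 genes of most similar deviations. *Mccc2*, *B3gnt8* and the genes named from comparison and marker lists were picked after their values were seen. So were *Slc7a5* and the other pathway genes with a diet difference above 0. Of the 19373 gene IDs, 99.6% matched GENCODE M21, whose coordinates are printed, 22 spreadsheet-altered symbols were restored, and 20 repeated symbols were kept once, at their row of highest mean. log2(FPKM + 1) of the 13147 genes that reached 1 FPKM in 4 or more mice was compared with limma 3.58.1 in R 4.3.3, all 4 groups in one fit, with no covariates and the intensity trend. Benjamini-Hochberg adjustment ran over all genes of a contrast. Single genes were also compared with two-sided exact permutation tests. The test and the depth estimate were tested on simulated data. Depth was estimated from the spacing of low values in 1473 genes with 1 annotated transcript, and covers counting on the authors' scale only. Tables and plots were made with Python 3.11.15, pandas 2.3.3, numpy 2.4.6 and matplotlib 3.10.9. Alternatives were a pseudocount of 0.1, no filter, a 5 FPKM filter, quantile, upper-quartile and 2 other scalings, only the groups compared, no trend, robust estimation, array weights, no fold limit, the replicate block, leaving out each mouse, and leaving out 2 mice chosen after the data were seen.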

Additional observations from a re-analysis of the deposited data

How the results depend on the processing

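Of the settings tried, scaling to the 12 adipocyte markers changed most. It left 1 of the 10 BCAA genes called with diet over both genotypes (4 as deposited), 1 in control mice (3) but 0 in *Mboat7* ASKO mice (1), and turned the sign of *Bckdha* (0.20 over both genotypes, 0.09 in control and 0.31 in *Mboat7* ASKO mice), *Dld* (0.26 over both, 0.60 in *Mboat7* ASKO mice), *Acad8* (0.39, 0.08 and 0.70) and *Hibadh* (0.19 in *Mboat7* ASKO mice). It also moved the calls over all genes to 2850 higher and 107 lower on HFD, against 590 and 400 as deposited and 714 and 291 with upper-quartile scaling, which moved the median of all genes to 0.11. Fitting only the groups compared called 1 gene in control mice (*Ivd*) but 0 in *Mboat7* ASKO mice, against 1.94% and 2.02% of all genes. That fit has fewer mice behind its spread. Leaving out 1 mouse at a time gave 4 to 5 genes over both genotypes, 1 to 3 in control mice (1 without control chow mouse 2 or control HFD mouse 3) and 0 to 2 in *Mboat7* ASKO mice (0 without *Mboat7* ASKO chow mouse 2 or HFD mouse 0, 2 without chow mouse 0). In the fits without 1 mouse, 6.39% to 7.91% of all genes were called over both genotypes. The shares were 1.99% to 3.24% in control mice and 2.04% to 3.81% in *Mboat7* ASKO mice. The diet difference of *Acad8* in *Mboat7* ASKO mice, -0.16 as deposited, was 0.04 with upper-quartile scaling, 0.03 when scaled to the sum without the 10 highest genes, 0.14 without both mice that had over 50% of FPKM in 10 genes, and between -0.47 and 0.16 without single mice. The cause of these changes was not tested.

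Whether mice with the same replicate number in the titles were paired was not settled. Deviations of same-numbered mice correlated between -0.187 and 0.152 in 24 pairs, 1 of them above 0.1. Of the mice in other groups, 8 of 16 mice correlated best with one of their own number. In every other group 1 of the 4 mice carried that number. With the number as a replicate block, 6 of the 10 genes were called with diet over both genotypes, against 7.06% of all genes tested, with *Dld* and *Hibadh* added. The same 6 genes were called with a 5 FPKM filter, against 12.1% of the 7648 genes it left. Within genotypes the block gave 2 calls among control mice and 1 among *Mboat7* ASKO mice, against 2.75% and 2.97% of all genes tested. No genotype or interaction call among the 10 genes appeared under any of the 30 alternatives. Values of a few FPKM rest on a few fragments, which limits *Bckdhb*, *Ivd* and *Dbt* on HFD, and 4 mice a group limit every genotype comparison.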
